A study of Mus musculus with 45 samples.

Results

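The 10 genes followed here, from fully grown oocytes (FGOs) to late two-cell embryos, belong to the small RNA pathways of the mouse oocyte: Dicer1, Ago2, Piwil2, Piwil4, Ddx4, Mael, Mov10l1, Tdrkh, Pld6 and Asz1. They were taken by symbol from the RNA-seq table, in which all 10 were found among 26214 genes. The study asked whether loss of H3K36me2, a histone mark lowered in oocytes by the mutant histone H3.3K36M, changed the transcriptome. Control females carried 1 copy of an inactive K36M-flox allele at the endogenous H3f3b locus (H3f3b K36M-flox/+) without Cre. K36M females carried the same allele together with Gdf9-Cre, whose oocyte-specific promoter switches on the mutant histone in oocytes. FGOs came from females of mixed C57BL/6 and 129 background aged 3 to 4 weeks. The embryos came from eggs of control and K36M females fertilized in vitro with JF-1 sperm and harvested at 31 to 32 h post-fertilization. The paper expects both H3f3b+/+ and H3f3b K36M/+ offspring when K36M females are crossed with wild-type males. The genotype of each embryo was not given, so for embryos genotype below means that of the mother. RNA-seq covered 3 control FGO libraries, 3 K36M FGO libraries, 7 control oocyte-derived embryos and 8 K36M oocyte-derived embryos. Control embryo replicate 4, which the study set aside for a technical problem, was left out. Each FGO library was a pool of oocytes and each embryo library a single embryo, and the females behind a library were not given, so p-values measure the spread between libraries.

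Dicer cuts double-stranded RNA into short RNAs, and AGO2 uses them to slice matching transcripts, a system that is unusually active in mouse oocytes and restrains retrotransposons there. PIWI proteins work with a second class of small RNAs, PIWI-interacting RNAs (piRNAs), whose production needs helicases, Tudor domain proteins and proteins of the mitochondrial surface. In mice the piRNA pathway is required for spermatogenesis, while females that lack it are generally fertile. The oocyte also makes a short Dicer form from a retrotransposon promoter inside the Dicer1 gene, which a gene-level table cannot separate from the somatic form.

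Stretches upstream of 3 of the genes are shown because Mael and Mov10l1 were the 2 genes whose FGO libraries did not overlap between genotypes, and Asz1 had the largest difference between stages of the 9 genes tested. Each is read 5′ to 3′ on the strand of the gene from RefSeq on GRCm38.p6 and ends just before the annotated gene. Capitals mark CACGTG, the palindromic E-box that is known from promoters of germline genes. They lie at chr1:166238745-166238994 on the minus strand (Mael), chr15:88982744-88982890 on the plus strand (Mov10l1) and chr6:18109062-18109311 on the minus strand (Asz1).
Mael: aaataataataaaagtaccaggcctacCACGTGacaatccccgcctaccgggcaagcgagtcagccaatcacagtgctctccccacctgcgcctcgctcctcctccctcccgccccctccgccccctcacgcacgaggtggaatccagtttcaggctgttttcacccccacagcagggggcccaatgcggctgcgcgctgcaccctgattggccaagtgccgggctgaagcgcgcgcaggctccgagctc
Mov10l1: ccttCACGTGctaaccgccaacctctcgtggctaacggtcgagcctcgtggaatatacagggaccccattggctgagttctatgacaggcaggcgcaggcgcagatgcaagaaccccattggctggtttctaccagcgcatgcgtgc
Asz1: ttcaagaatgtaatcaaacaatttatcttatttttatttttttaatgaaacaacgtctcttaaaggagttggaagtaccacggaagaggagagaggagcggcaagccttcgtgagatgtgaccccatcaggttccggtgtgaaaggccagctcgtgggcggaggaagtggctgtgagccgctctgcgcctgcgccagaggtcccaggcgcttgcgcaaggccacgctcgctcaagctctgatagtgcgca
The 250 bases before a start site were available for 8 of the 10 genes (not Ago2 or Piwil2). CACGTG stood in such a window of 4 of the 8 (Mael, Mov10l1, Ddx4 and Pld6), and in 6.86% of the 27025 genes with a window. The E2F-type motif TCCCGC, searched on both strands, stood in 3 of the 8 (Dicer1, Ddx4 and Mael) and in 18.8% of genes. With the window richest in CpG taken for each gene, the median number of CpG dinucleotides was 19 for the 8 genes and 6 for all genes. A match is a match of letters only, and no binding or methylation of these promoters was measured here.

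Expression was read as TPM, the share of each library's transcripts that a gene takes, scaled to a fixed sum and corrected for gene length, so fewer transcripts of a gene and more transcripts of other genes cannot be told apart. Between 16707 and 18559 genes had a TPM above 0 in FGO libraries, 12115 to 17329 in control embryos and 10894 to 14879 in K36M oocyte-derived embryos. Summed TPM of 10 oocyte markers such as Zp3 and Gdf9 ran from 16013 to 16248 in control FGOs, 13921 to 15355 in K36M FGOs and 539 to 1909 in embryos, whereas the 8 markers of genome activation such as Zfp352 reached at most 73.9 in FGOs and at least 270.4 in embryos. The 10 granulosa cell markers summed to 115 to 125 in control and 123 to 186 in K36M FGOs, most of it from Nr5a2 (67.1 to 77.1 and 72.6 to 141), with Cyp19a1 (22.7 to 30.01 and 18.5 to 31.0) and Inha (5.08 to 15.03 and 6.29 to 13.5) lower, and Foxl2 and Amh at or below 5.52. H3f3b itself, whose mutant and normal transcripts share 1 row, had 293 ± 24.6 TPM (SD, n = 3) in control and 398 ± 20.8 TPM (n = 3) in K36M FGOs.

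In control FGOs the 10 genes spanned a wide range of levels, with Dicer1 at the top and Piwil4 at the bottom. Their order by mean TPM was Dicer1, Asz1, Ddx4, Tdrkh, Mael, Ago2, Pld6, Mov10l1, Piwil2 and Piwil4. Of these neighbours only Asz1 and Ddx4, and Pld6 and Mov10l1, had overlapping ranges. Together the 10 genes made up 919 ± 36.3 TPM in control FGOs (n = 3), 961 ± 70.4 TPM in K36M FGOs (n = 3), 544 ± 114 TPM in control embryos (n = 7) and 449 ± 119 TPM in K36M oocyte-derived embryos (n = 8). Dicer1 kept the highest mean in all 4 groups, but in embryos the ranges of every pair of neighbours in the order overlapped.

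**Figure D1:**
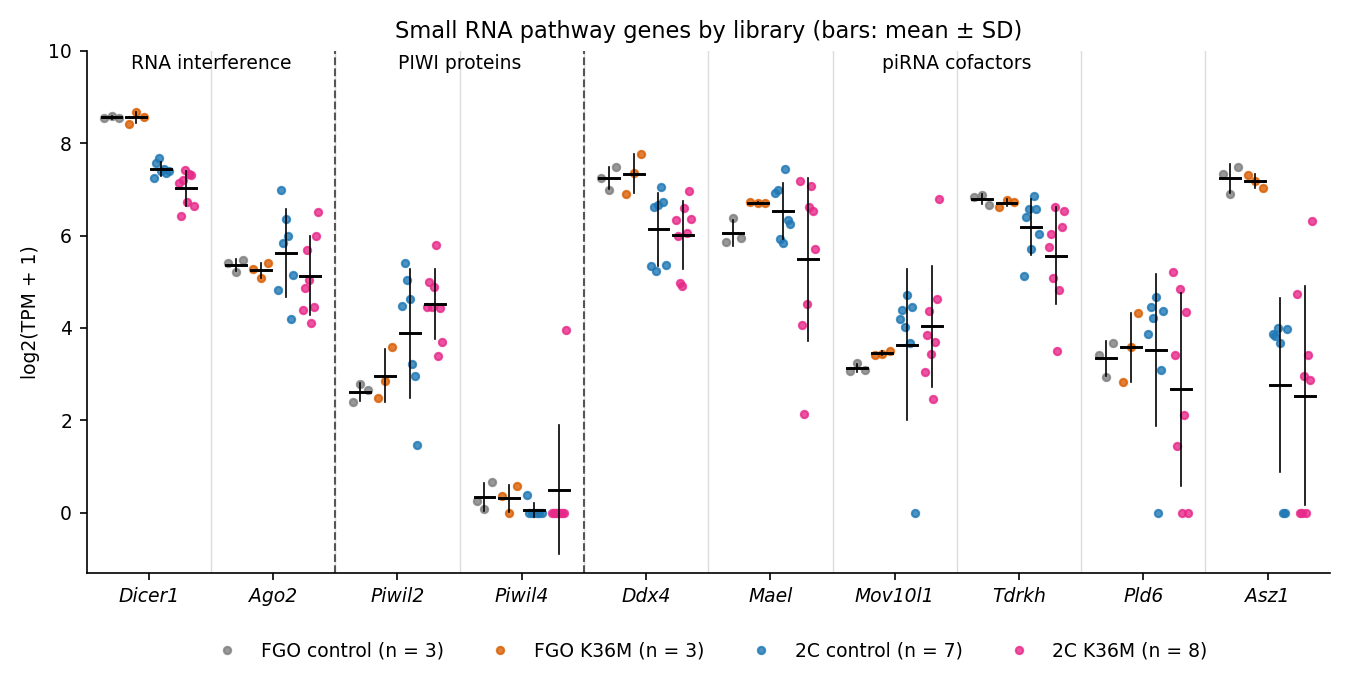
Level of each of the 10 genes as log2(TPM + 1) on the vertical axis, with 1 point per library, a horizontal bar at the mean and a vertical bar of ± 1 SD, for control and K36M FGOs and for control and K36M oocyte-derived two-cell (2C) embryos. Within each genotype, FGO points lie closer together than embryo points for every gene but Piwil4, which is listed at 0 in most embryos. Of the other genes Dicer1 spreads least in embryos, and Asz1 drops in embryos to values that include 0.

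Between K36M and control FGOs, no gene of the 10 passed the adjusted threshold. Log2(TPM + 1) was compared with limma over the 13775 genes that averaged 1 TPM or more, and 0 of the 9 genes tested were called, against 0.00726% of all genes (1 gene). Piwil4 fell below the filter. At an unadjusted p under 0.05 there was 1 gene of the 9, Mael, against 10.5% of all genes. In 2 of the 9, Mael and Mov10l1, every K36M library lay above every control library, against 7.46% of all genes, and in 0 every K36M library lay below, against 8.17%.

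Mael, which encodes a piRNA factor of the germ granule (nuage) also known as Maelstrom, lies on chromosome 1 from 166201385 to 166238744. Its TPM was 56.8, 81.7 and 60.7 in control FGOs and 105, 104 and 103 in K36M FGOs. The K36M pools were thus all higher and nearly equal, with an SD of 0.933 TPM against 13.4 TPM in controls. The log2 difference was 0.66 (SE 0.14), or 1.58-fold on the log2(TPM + 1) scale, with a limma adjusted p of 0.306, and 3.26% of all genes tested had as large an increase. Its adjusted p ran from 0.0722 to 0.712 when each FGO library was left out in turn, the lowest without K36M replicate 1, a fit that called 300 genes in all but not Mael. The summed oocyte markers given above were lower in all 3 K36M pools, as were Zp1, Zp2, Zp3, Bmp15 and Oosp1 singly, while Mos was higher in all 3 (365 to 443 against 279 to 324 TPM) and Gdf9, Figla, Nobox and Ooep overlapped. The granulosa sums overlapped between genotypes, and the part of either list in the Mael values was not tested.

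In embryos the fitted difference of Mael had the opposite sign, but the comparison between stages given below did not pass. In control embryos its TPM had a lowest value of 55.9, a median of 79.4 and a highest value of 173.5, and in K36M oocyte-derived embryos these were 3.42, 71.8 and 144. Of the 8 K36M oocyte-derived embryos 4 lay below the lowest control embryo, and of the 7 control embryos 1 lay above the highest K36M embryo, so the groups overlapped. The difference of -1.04 on the log2 scale (SE 0.61) did not pass the test (limma adjusted p = 0.680, exact two-sided permutation p = 0.162, unadjusted), and it ran from -1.29 to -0.57 with 1 embryo left out, the latter without K36M replicate 3. The SD of log2(TPM + 1) was 0.60 in control and 1.77 in K36M oocyte-derived embryos, and 27.4% of genes of similar level (mean TPM from 30 to 100) had as large an SD in the latter.

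Mov10l1, an RNA helicase that feeds precursor transcripts into piRNA production, lies on chromosome 15 from 88982891 to 89055152. It was at 7.44, 8.43 and 7.48 TPM in control and 9.66, 9.90 and 10.25 TPM in K36M FGOs. These groups did not overlap either, but the log2 difference was small (0.32, SE 0.21) and did not pass (limma adjusted p = 0.605). In embryos it ranged from 0 to 25.2 TPM (median 17.3) in controls and from 4.49 to 109 TPM (median 12.7) in K36M oocyte-derived embryos. The value of 109 came from K36M replicate 8, and the next highest embryo of either genotype had 25.2 TPM. The embryo difference of 0.40 (SE 0.76, limma adjusted p = 0.891) turned to -0.21 without control replicate 8, the embryo listed at 0, and was 0.00770 without K36M replicate 8.

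Dicer1, the endonuclease that makes both microRNAs and the endogenous short interfering RNAs of oocytes, lies on chromosome 12 from 104687740 to 104751968. Control FGOs had 371, 385 and 372 TPM, and K36M FGOs 342, 409 and 378 TPM. The K36M values fell on both sides of the control values and the log2 difference was -0.003 (SE 0.082, limma adjusted p = 0.995). In control embryos Dicer1 ranged from 150 to 205 TPM with a median of 167, and in K36M oocyte-derived embryos from 84.4 to 169 TPM with a median of 144. Of the 8 K36M oocyte-derived embryos 5 lay below all control embryos, and 3 of the 7 control embryos lay above all K36M oocyte-derived embryos, while the rest overlapped. The 3 lowest, K36M replicates 2, 8 and 5 (84.4, 98.9 and 105 TPM), were also the 3 K36M oocyte-derived embryos with the fewest genes above 0 (10894, 11178 and 12554).

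For the embryo difference in Dicer1, -0.42 on the log2 scale (SE 0.26), limma gave an adjusted p of 0.693. The exact two-sided permutation test of this gene alone gave p = 0.00777, and 0.00350 to 0.0167 with any 1 embryo left out, and 0.0444 with control embryo replicate 4 added. This p is not adjusted: 256 genes (1.47%) had one as small, and adjusted over all 17362 genes tested it became 0.527. The median of all genes was itself -0.26 on the log2 scale, which left -0.16 for Dicer1 relative to it. After quantile normalization, which moved that median to -0.04, the difference of Dicer1 was -0.40 and its permutation p 0.00746, so what is left relative to the median of all genes depends on the scaling. With the 4 embryos of fewest genes above 0 left out (those 3 and control replicate 7), the difference of Dicer1 was -0.17 and its permutation p 0.0649 (6 control and 5 K36M embryos). Leaving out the 3 lowest values makes the difference smaller by itself, and fewer embryos give a larger p, so these values show only how much of the difference rests on those embryos. Control embryos were unusually alike in Dicer1, with an SD of 0.15 in log2(TPM + 1), and 99.7% of genes with a mean TPM of 100 or more had as large an SD among them. The limma test borrows its spread from other genes of like level, whose median SD there was 0.56.

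None of the other genes passed the test between genotypes at either stage. In FGOs the log2 differences of the other 6 tested ran from -0.12 (Ago2) to 0.36 (Piwil2), with limma adjusted p of 0.708 or more. Both ends moved with single libraries, from -0.19 to -0.033 for Ago2 (the latter without K36M replicate 2) and from 0.048 to 0.60 for Piwil2 (without K36M replicates 3 and 1). In embryos 0 of the 9 genes tested were called, as were 0% of all 17362 genes, and 0 had groups that did not overlap, against 0.115% of all genes. None of the 9 had an unadjusted limma p under 0.05 (7.71% of all genes did), and 1, Dicer1, had an exact permutation p under 0.05 (7.42% of all genes did). The fitted differences of 7 of the 9 were below 0, as were 63.8% of all genes.

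**Figure D2:**
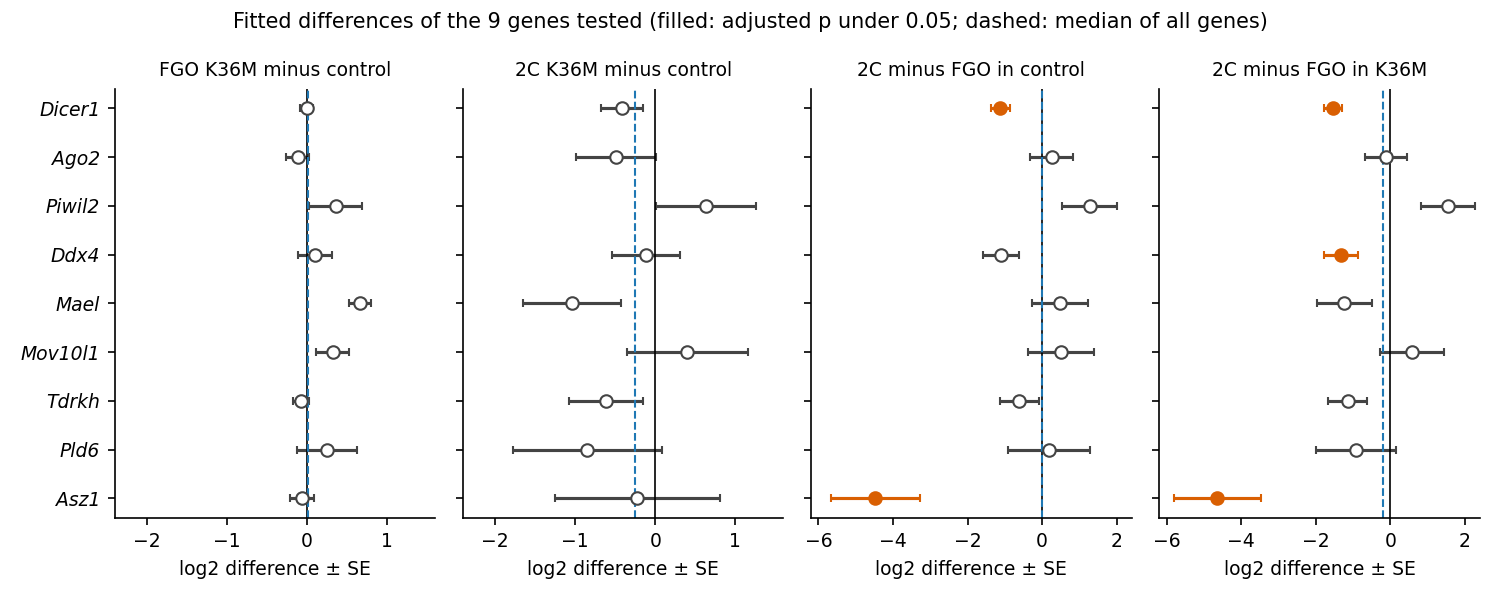
Fitted log2 difference (horizontal axis) with its SE for the 9 genes tested in 4 comparisons, with filled points where the limma adjusted p was under 0.05 and a dashed line at the median of all genes tested. No point is filled in either K36M minus control panel, and Dicer1 and Asz1 are filled on the lower side in both 2C minus FGO panels, joined by Ddx4 in K36M.

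From FGO to two-cell embryo, Dicer1 and Asz1 were called lower in both genotypes, and Ddx4 was called lower in K36M. In 1 fit over all 21 libraries, 2 of the 9 genes tested were called lower and 0 higher in control (26.6% of all genes were called, 13.2% lower), and 3 were called lower and 0 higher in K36M (29.3% called, 18.6% lower). In 2 of the 9 (Dicer1 and Asz1) all control embryos lay below all control FGO libraries, against 18.2% of all genes, and in 3 (Dicer1, Tdrkh and Asz1) the same held in K36M, against 17.2%. FGO libraries were pools given fewer amplification cycles and, by the paper's totals, more reads than the single embryos, which also had JF-1 fathers. Stage thus cannot be told apart from input amount, amplification, sequencing depth or strain in any of these values.

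Dicer1 fell by 1.12 on the log2 scale in control (SE 0.24, limma adjusted p = 0.00134), or 2.17-fold, and by 1.53 in K36M (SE 0.24, adjusted p = 3.06e-05), or 2.89-fold. All 15 embryos lay below all 6 FGO libraries. Declines of this size were common, since 27.4% of genes in control and 25.8% in K36M fell at least as far.

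Asz1, an ankyrin repeat protein of the mitochondrial surface that is needed for piRNA production in male germ cells, lies on chromosome 6 from 18050964 to 18109061. Control FGOs had 160, 118 and 179 TPM, and K36M FGOs 158, 145 and 129 TPM, so the genotypes overlapped. Control embryos had 13.5, 13.1, 14.9, 11.7, 0, 0 and 14.7 TPM. K36M oocyte-derived embryos had 25.8, 0, 0, 6.76, 0, 9.59, 6.28 and 78.8 TPM, the highest again in replicate 8.

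Every embryo was below every FGO library in Asz1. The log2 difference was -4.48 in control (SE 1.19, limma adjusted p = 0.00699), or 22.3-fold, and -4.64 in K36M (SE 1.17, adjusted p = 0.00405), or 24.9-fold, both on the log2(TPM + 1) scale. In mean TPM it went from 152 ± 31.1 (n = 3) to 9.72 ± 6.73 (n = 7) in control and from 144 ± 14.9 (n = 3) to 15.9 ± 26.8 (n = 8) in K36M, so the order of the genotypes depends on the scale. Of all genes tested, 1.04% in control and 1.37% in K36M fell as far. On this scale a gene can fall no further than its own FGO level, so genes low in FGOs could not reach this size. These folds depend on the embryos listed at 0: with a pseudocount of 0.1 in place of 1 the control difference was -5.48 and its adjusted p 0.0532, the highest of the settings tried, among which it ran down to 1.79e-06. The 2 control embryos at 0 were those with the fewest genes above 0 of their group (12722 and 12115). In K36M the 3 embryos at 0 had 10894, 14201 and 12554 genes above 0, while replicate 8, with the highest Asz1 value, had 11178. The K36M values thus went both ways. Among genes of mean TPM from 10 to 30 in embryos 14.7% were listed at 0 in 5 or more of the 15. In share of the 10 genes' summed TPM, Asz1 went from 16.5% in control FGOs to 1.92% in control embryos.

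**Figure D3:**
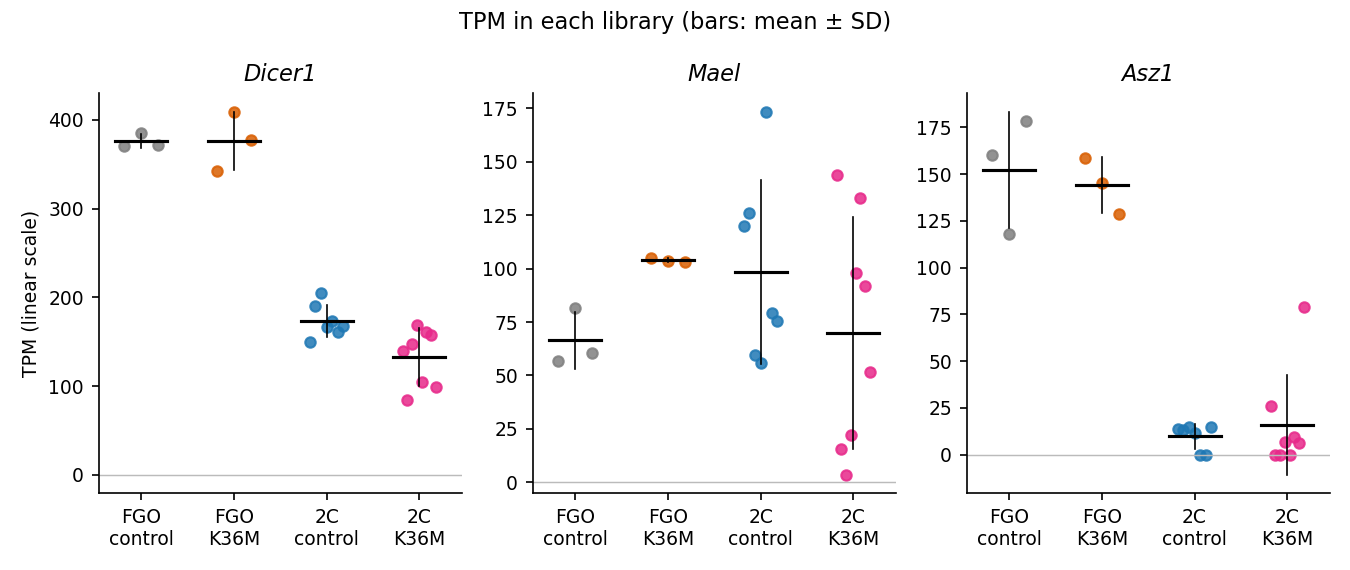
TPM of Dicer1, Mael and Asz1 in each library on a linear vertical axis, with the mean (horizontal bar) and SD (vertical bar) of each of the 4 groups. Dicer1 and Asz1 fall from FGOs to embryos in both genotypes, and Mael is higher in all 3 K36M FGO pools and widely spread in K36M oocyte-derived embryos, 3.42 to 144 TPM.

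Ddx4, the germ cell RNA helicase also called mouse vasa homologue, lies on chromosome 13 from 112598333 to 112652633. It stood at 151, 126 and 178 TPM in control FGOs and at 119, 164 and 216 TPM in K36M FGOs. Embryos had 36.3 to 131 TPM (median 96.6) in control and 28.9 to 124 TPM (median 72.6) in K36M. The embryos were lower on average, but 1 embryo of each genotype lay above the lowest FGO library of that genotype. The stage difference was -1.11 in control (SE 0.48, limma adjusted p = 0.0885) and -1.32 in K36M (SE 0.47, adjusted p = 0.0349). The K36M call did not hold when any of the 3 K36M FGO libraries (adjusted p = 0.0531, 0.107 and 0.176) or K36M embryo replicate 3 or 4 (0.0557 and 0.0563) was left out, and over all settings tried the adjusted p ran from 0.00188 to 0.176. The interaction for Ddx4 was -0.22 (SE 0.67, adjusted p = 1.00).

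Tdrkh, a Tudor domain protein that anchors PIWI proteins at mitochondria, lies on chromosome 3 from 94413243 to 94434854. Its TPM was 112, 117 and 99.99 in control FGOs and 97.9, 109 and 105 in K36M FGOs. Embryos ran from 33.8 to 115 TPM (median 83.6) in control and from 10.4 to 96.7 TPM (median 58.9) in K36M. In K36M all embryos lay below the FGO libraries, yet the difference of -1.15 (SE 0.51) missed the threshold (limma adjusted p = 0.0984). The end of Tdrkh overlaps Oaz3 on the other strand, which had mean TPM of 4.03 and 5.29 in control and K36M FGOs and 22.5 and 6.56 in the embryos, and the strand setting of the counting was not given in the sources used here.

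Pld6, a nuclease of the mitochondrial outer membrane also named Zucchini or MitoPLD, lies on chromosome 11 from 59783893 to 59787657. It was low in FGOs, at 9.71, 6.61 and 11.7 TPM in control and 6.14, 11.04 and 19.12 TPM in K36M. Embryos ran from 0 to 24.3 TPM (median 17.7) in control and from 0 to 36.1 TPM (median 6.51) in K36M, with 3 of 15 listed at 0. All groups overlapped, and stage differences of 0.18 (SE 1.10) in control and -0.91 (SE 1.08) in K36M were smaller than their errors.

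Ago2, the slicing Argonaute, lies on chromosome 15 from 73101625 to 73184947. FGO values were 41.7, 36.2 and 43.2 TPM in control and 37.5, 32.9 and 41.2 TPM in K36M. Embryos had 17.3 to 125.5 TPM (median 56.1) in control and 16.2 to 90.7 TPM (median 29.9) in K36M, a spread that enclosed all 6 FGO values. Stage differences were 0.25 (SE 0.57) in control and -0.12 (SE 0.56) in K36M and passed no threshold. Ago2 stayed below Dicer1 in mean TPM in all 4 groups.

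The PIWI proteins had the lowest mean TPM of the 10 genes in FGOs. Piwil2, the protein MILI that binds piRNAs in the germ granules, lies on chromosome 14 from 70372477 to 70436898 and had 4.25, 5.89 and 5.32 TPM in control and 4.57, 6.17 and 11.01 TPM in K36M FGOs. Embryos ran from 1.76 to 41.3 TPM (median 21.1) in control and from 9.498 to 54.8 TPM (median 20.9) in K36M. The medians stood higher than in FGOs, but the differences of 1.27 (SE 0.73, limma adjusted p = 0.212) in control and 1.54 (SE 0.72, adjusted p = 0.110) in K36M did not pass. With libraries weighted by their spread (limma array weights), Piwil2 was called higher in both genotypes, with adjusted p of 0.00325 and 0.0231, but the other settings tried gave up to 0.409 and 0.329.

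Piwil4, the nuclear protein MIWI2 that directs DNA methylation of transposons in fetal male germ cells, lies on chromosome 9 from 14701776 to 14740672. It was near the floor of the table, at 0.20, 0.05 and 0.59 TPM in control FGOs and 0.28, 0 and 0.50 TPM in K36M FGOs. In embryos it was listed at 0 in 13 of 15, with 0.304 TPM in control replicate 1 and 14.5 TPM in K36M replicate 8. It averaged under 1 TPM and was left out of the limma fits that used this filter. The exact two-sided permutation test between the embryo groups gave a log2 difference of 0.44 and p = 1. With 13 of 15 embryos at 0 it could not have given a small p, so no conclusion is drawn from it.

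The difference between genotypes was also compared between stages. In the interaction test 0 of the 9 genes and 0% of all 17358 genes were called by limma, and at an unadjusted p under 0.05 there were 0 of the 9 and 1.15% of all genes. Mael, whose fitted difference was above 0 in FGOs and below 0 in embryos, had an interaction of -1.70 on the log2 scale (SE 1.05, limma adjusted p = 1.00). For Dicer1 it was -0.41 (SE 0.34, adjusted p = 1.00). The 2 stages share 1 estimate of spread per gene in this fit although embryos varied more than pools.

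The wider pathways were read from 47 further genes in 3 lists, of which 46 were in the table (not Spocd1). Between genotypes 0 of these passed the limma threshold in FGOs, in embryos or in the interaction. At an unadjusted p under 0.05 there were 6 of 45 tested in FGOs, 2 of 45 in embryos and 0 of 46 in the interaction, against 10.5%, 7.71% and 1.15% of all genes. From FGO to embryo 10 of 46 were called higher and 8 lower in control, and 8 higher and 11 lower in K36M, shares to be read against the 13.4% higher and 13.2% lower of all genes in control and 10.8% and 18.6% in K36M.

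Tudor domain proteins, some of which hold PIWI proteins in germ granules, were called in 1 direction only. Of 11 tested, 6 were lower and 0 higher in control, and 5 were lower and 0 higher in K36M, with medians of -1.57 and -1.58 against 0.002 and -0.18 for all genes. Tdrd5 was the most abundant in control FGOs, and its mean TPM went from 483 ± 20.4 (n = 3) to 18.2 ± 14.8 (n = 7), a log2 difference of -5.13 (SE 0.65). Akap1, a mitochondrial anchoring protein with a Tudor domain, went from 384 ± 14.0 to 221 ± 65.8 TPM, a log2 difference of -0.84 (SE 0.27).

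Of 18 genes of microRNA production and RNA interference, 5 were called higher and 0 lower in control, and 4 higher and 1 lower in K36M. Drosha, the nuclease that starts microRNA processing, rose from 161 TPM in control FGOs to 497 TPM in control embryos (log2 difference 1.56, SE 0.32, limma adjusted p = 0.000827). Lin28a, an RNA-binding protein that blocks let-7 processing, had a mean of 106 TPM in control FGOs and in control embryos. The remaining piRNA genes were divided, with 5 of 17 called higher and 2 lower in control and 4 higher and 5 lower in K36M. Hsp90aa1, a chaperone used in loading small RNAs, fell from 4516 to 741 TPM in control and Gtsf1, a PIWI cofactor, from 644 to 96.2 TPM. Piwil1, the PIWI protein called MIWI, was the most abundant PIWI transcript in FGOs at 47.2 ± 9.51 TPM in control and 55.9 ± 4.93 TPM in K36M (n = 3 each). Its embryo means were 16.7 TPM in control and 12.8 TPM in K36M, a decline called in K36M (-2.75, SE 0.82, adjusted p = 0.0132) but not in control (-1.74, SE 0.84, adjusted p = 0.130).

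**Figure D4:**
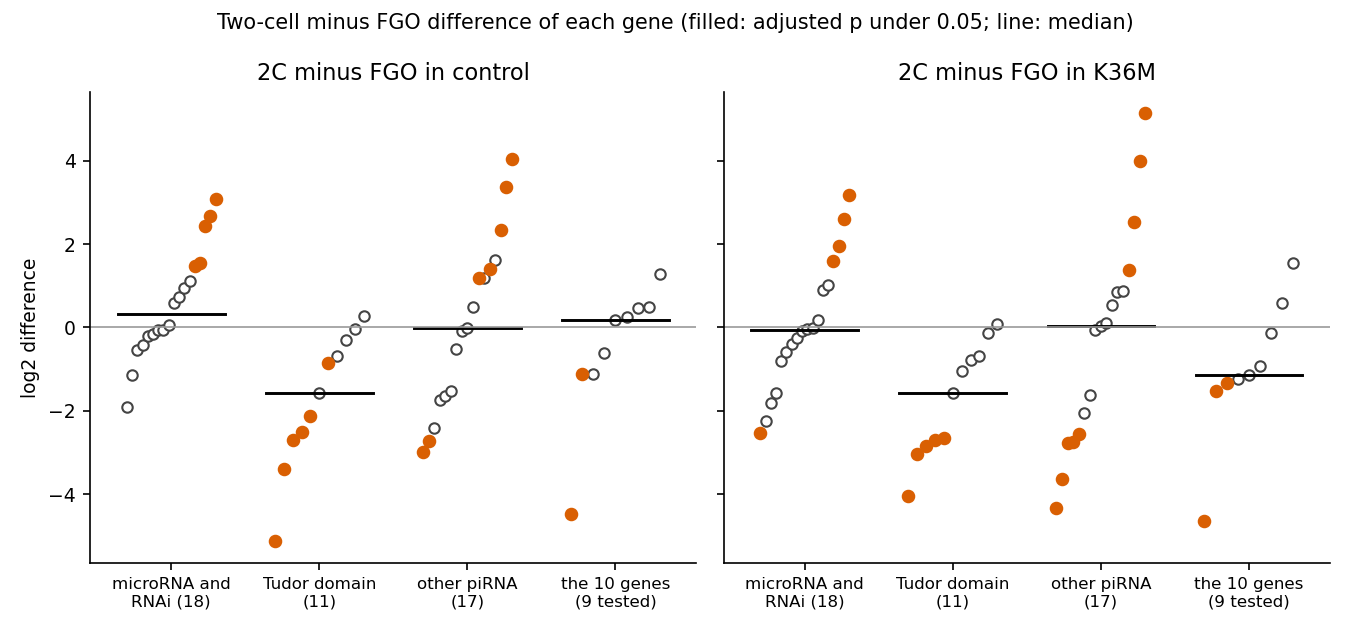
Log2 difference between two-cell embryos and FGOs (vertical axis) of each gene in 3 lists of other small RNA genes and of the 9 genes tested among the 10, in control (left) and K36M (right), with filled points at a limma adjusted p under 0.05 and a line at the median. The called Tudor domain genes all lie below 0, while the other 2 lists hold called genes on both sides in at least 1 genotype.

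Genes with the most similar profile were found for the member of each role with the highest mean TPM in control FGOs (Asz1 among the piRNA cofactors, closely followed by Ddx4), as the smallest root mean square difference of centred log2(TPM + 1) over the 21 libraries among the 11450 genes that averaged 1 TPM or more in every group. For Dicer1 they were Map4 (0.26), Dcaf8 (0.28) and Plekhg3 (0.30), against a median of 1.35 over all these genes. For Piwil2 they were Llgl2 (0.66), Ube2c (0.72) and Ube2v1 (0.75), against 1.78. For Asz1 they were Elovl1 (1.02), Gmds (1.07) and Mrps17 (1.22), against 2.74. The closest match to Asz1 was thus less close than that to Dicer1.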

How the data were processed

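RNA-seq was analysed from 21 of 22 libraries (6 of FGOs and 15 of single embryos), grouped by their labels. The authors trimmed reads with Trim Galore, aligned them to mm10 with HISAT2, discarded ribosomal RNA reads using bedtools, counted per gene with featureCounts, ran edgeR for their own comparisons and deposited TPM values. Which annotation and strand setting lay behind the TPM values was not given in the sources used here. TPM keeps no read numbers per gene, so no count test was run and no counting interval is given. The study's sequencing totals per library entered no fit here.

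Genes averaging 1 TPM or more over the libraries of a fit were compared as log2(TPM + 1) in limma 3.58.1 under R 4.3.3, using lmFit, then eBayes with its trend option. Benjamini-Hochberg adjustment ran over all genes of a fit, and calls were made at an adjusted p under 0.05. The pseudocount of 1 shrinks the folds of low genes. FGOs and embryos had separate fits, and 1 fit of all 21 libraries gave the stage contrasts and the interaction. Single genes were also compared between embryo groups by two-sided exact permutation (scipy 1.17.1 in Python 3.11.15, with numpy 2.4.6 and pandas 2.3.3). Figures were drawn with matplotlib 3.10.9. The limma step was tested on simulated data. Positions and upstream sequences came from RefSeq on GRCm38.p6, the assembly of mm10.

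The 10 genes, the 3 lists of other small RNA genes and the marker lists were chosen with earlier results of these data known. From the 3 lists, Piwil1, the 2 genes of each list with the highest mean TPM in control FGOs and any gene called between genotypes (there were 0) were named. Alternatives were a pseudocount of 0.1, no low-value filter, quantile normalization, array weights, a block for replicate number, adding control embryo replicate 4, and omitting each library in turn. The series' other assays were not used here.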

Additional observations from a re-analysis of the deposited data

Results flagged for a closer look

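In 20 groups of embryos (10 genes, 2 genotypes), the lowest or highest embryo was compared with its neighbours by Dixon's gap rule on log2(TPM + 1). It picked out 4 single values. Chance alone picks about 1 in 20 groups, which does not hold for Piwil4, since any value above 0 stands apart in a group otherwise at 0. Piwil4 had 0.304 TPM in control replicate 1 and 14.5 TPM in K36M replicate 8, in groups otherwise listed at 0. Mov10l1 was listed at 0 TPM in control replicate 8 alone of the 7 control embryos, and Pld6 at 0 TPM in control replicate 6 alone. The K36M replicate 8 embryo also held the highest Mov10l1 (109 TPM) and Asz1 (78.8 TPM) values of any embryo. The difference between genotypes was compared between stages for 9 genes by the interaction test, and none passed.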

How the results depend on the processing

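Of 810 recomputed log2 differences (4 comparisons of the 9 genes tested, and the interaction of Mael and Dicer1), 772 kept their direction and their side of the threshold, 23 changed sign, 6 lost a call and 9 gained one; leaving out each embryo in turn, the member counts and the tests of Dicer1 with quantile normalization or with embryos left out were chosen after seeing the data. Differences that changed sign were all uncalled: Dicer1 in FGOs with quantile normalization (0.00071), Asz1 in embryos with quantile normalization (0.073), Ago2 (-0.0024) and Pld6 (-0.26) between stages in control with control embryo replicate 4 added, and Pld6 there with a pseudocount of 0.1 (-0.23). With 1 library left out, differences in FGOs ran from -0.064 to 0.063 for Dicer1, -0.11 to 0.32 for Ddx4, -0.13 to 0.62 for Pld6 and -0.24 to 0.062 for Asz1. Those in embryos ran from -0.27 to 0.042 for Ddx4, -0.21 to 0.63 for Mov10l1 and -0.76 to 0.14 for Asz1, and those between stages from -0.022 to 0.77 for Pld6 in control and -0.32 to 0.026 for Ago2 in K36M.

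Between genotypes in FGOs, 1 gene of all genes passed, and 0 with a pseudocount of 0.1 or with no filter, and 0 to 300 with 1 library left out (300 without K36M replicate 1). In embryos the count was 0, and 0 to 1 with 1 embryo left out (1 without K36M replicate 8). Between stages, array weights raised the calls from 4615 to 9730 genes in control and from 5094 to 8527 in K36M, and those among the 9 genes to 5 and 6 (Piwil2 higher, and Ddx4, Tdrkh and, in K36M, Mael lower besides Dicer1 and Asz1). A pseudocount of 0.1 left 1 of the 9 called in control, Dicer1. With 1 library left out, 2844 to 4930 genes were called in control, the lowest numbers without a control FGO library. Ddx4 in control was also called with quantile normalization (adjusted p = 0.0461), with the block (0.0340) and without control embryo replicate 6 (0.0498). For the interaction 13 genes passed with no filter, 3 with array weights and 0 to 3 with 1 library left out, none of them among the 9. The cause was not tested for any of these changes.

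The correlation of same-numbered deviations ran from 0.015 to 0.10 in FGOs and from -0.10 to 0.097 in embryos. It exceeded the highest correlation with another number for FGO replicates 1 (0.025 against -0.0012) and 3 (0.10 against -0.012). In embryos it did so for replicate 1 alone (0.097 against 0.079). With so few libraries, these values cannot decide whether replicate numbers pair the libraries. With the replicate block, 0 genes passed between genotypes in FGOs and 0 in embryos, 4094 and 4796 between stages and 0 for the interaction, and Ddx4 in embryos moved to 0.042. TPM values carry no read numbers, so whether a gene listed at 0 in a single embryo was absent or missed cannot be told apart.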
